A study of Mus musculus with 18 samples.

Results

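RN2 leukaemia cells that carried the switchable base editor seBE and had received rapamycin were compared with RN2 cells that carried a base editor with an inactivated deaminase. The comparison took 6 of the 18 libraries of the series, chosen by their titles: 3 of seBE under rapamycin and 3 of the catalytic mutant. RN2 is an established mouse acute myeloid leukaemia line, labelled MLL-AF9 / NrasG12D, and both groups carry the genotype label WT. Each construct was delivered by lentivirus, and cells were sorted on day 5. The seBE cells received 1 nM rapamycin for the 24 h before the sort. The sample labels of the catalytic mutant state vehicle for 24 h, whereas the treatment protocol names drug and vehicle only for intact BE and seBE. The count table names the mutant by E63A, a change of the catalytic glutamate of the evolved APOBEC1 deaminase (evoA1). Deaminase activity, the switchable build of the editor and the drug therefore differ together, and their parts cannot be told apart in this comparison alone. The other libraries, 3 each, were nCas9 (the Cas9 nickase), intact BE under vehicle, intact BE under rapamycin and seBE under vehicle. The sources used here name neither the guides nor the marker of the sort, and the construct transcripts were not analysed here. The design text gives the purpose of the series as a search for toxicity of base editors that acts through gene expression, and it describes the mutant as an intact, undivided editor with an inactive deaminase.

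A cytosine base editor joins a Cas9 nickase to a DNA deaminase of the APOBEC family, which turns cytosine into uracil near the site that the guide selects. Uracil in DNA is normally removed by base excision repair, which starts with a uracil glycosylase such as Ung. In a split-engineered editor the deaminase is divided, and its parts are joined by protein domains that meet on rapamycin, so the drug switches the editor on. Rapamycin bound to FKBP12 (Fkbp1a) also inhibits mTORC1, a kinase complex that promotes protein and lipid synthesis, partly through the sterol regulators SREBP and the amino acid regulator ATF4. MLL-AF9 leukaemia keeps myeloid cells immature through genes such as Hoxa9 and Meis1.

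Both groups held myeloid leukaemia RNA, and none of the 5 marker lists of other lineages had enough counts to test all of its members. All 13 genes of a leukaemic myeloid identity list were measured, none passed the threshold given below, and their summed level was 5088 to 5499 CPM (read counts scaled to library size) in seBE under rapamycin and 5393 to 5748 CPM in the mutant. Total counts were 20787927 to 22490858 in seBE under rapamycin and 13835979 to 18924153 in the mutant, without overlap. Mitochondrially encoded genes held 3.58% ± 0.889 (SD, n = 3) of the counts against 4.53% ± 0.879, a difference of -0.947 percentage points with an exact 2-sided permutation p = 0.3, where 0.1 is the smallest p that 3 against 3 allows. In mutant replicate 3 ENSMUSG00000119584, the most abundant gene over all libraries, held 0.153% of counts against 2.56% and 2.73% in the other two, and Malat1, a nuclear RNA, stood at 314 CPM against 1446 and 1415 CPM. seBE rapamycin replicate 3 lay at -19.98 on the first principal component of the 18 libraries against 1.45 and 8.11 for the other two. The libraries also differed in how levels followed GC content. Relative to the mean of all libraries, the slope per 10 percentage points of transcript GC was 0.199, 0.209 and 0.142 on the log2 scale in the mutant and 0.116, -0.0349 and -0.168 in seBE under rapamycin. Every mutant library thus had relatively more signal in GC-rich transcripts than every library of seBE under rapamycin.

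**Figure D1:**
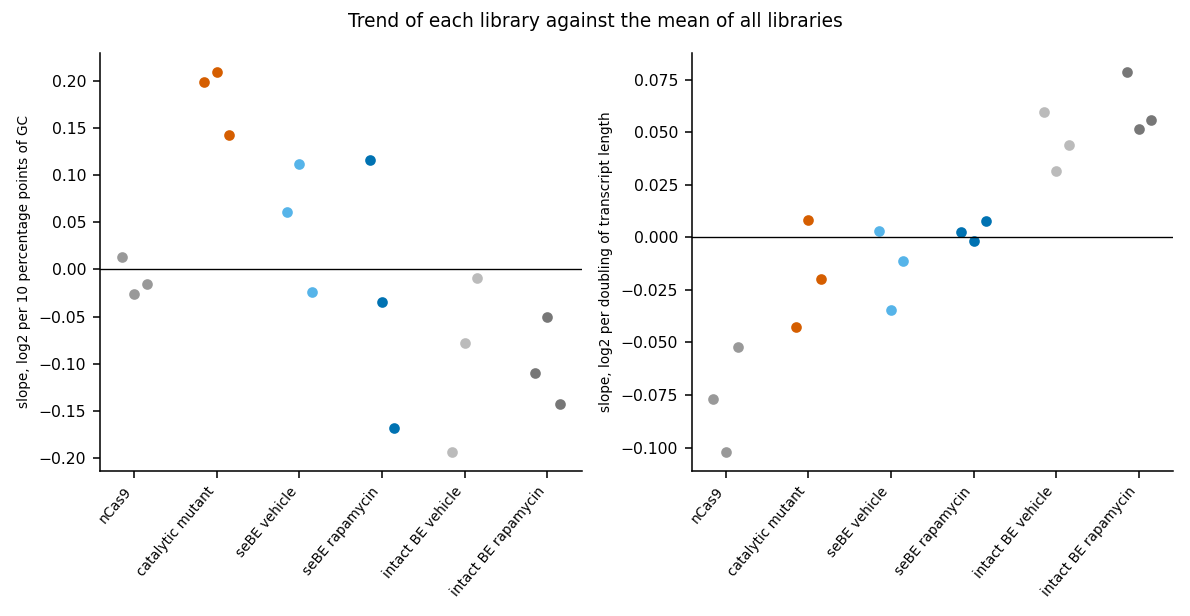
Slope of log2 level on transcript GC content (left, per 10 percentage points) and on transcript length (right, per doubling) for each of the 18 libraries against the mean of all, 3 points a group. The 3 mutant libraries lie at 0.142 to 0.209 for GC and the 3 of seBE under rapamycin at -0.168 to 0.116.

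Cells with the induced switchable editor differed from cells with the dead deaminase by many small changes and few large ones. Sterol and fatty acid genes were among those that fell, together with Tcf4, a transcription factor gene, and Pld4, a lysosomal nuclease gene. The integrin gene Itga1 and the myeloid receptor gene Clec5a were among those that rose. The DNA repair, p53 target and interferon-stimulated lists each had 0 or 1 called member, a share near or below the 2.62% called over all genes.

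Of 14985 genes tested, 393 (2.62%) passed an adjusted p of 0.05 in edgeR's quasi-likelihood test with Benjamini-Hochberg adjustment, 247 higher (1.65%) and 146 lower (0.974%) in seBE under rapamycin. The labels speak of biological replicates but not of separate cultures or transductions, so each p-value rests on the spread between the libraries at hand, which may be technical. Called changes had a median size of 0.38 on the log2 scale, and the median over all genes was -0.01. Only 12 of the called genes differed by 2-fold or more. The 5 higher ones were Cx3cr1, Stfa1, Cdh17, 2010005H15Rik and A530083M17Rik, and the 7 lower ones were Aldh1a7, Nlrc3, Tgm2, mt-Co2, Gpx4-ps2, Hm629797 and Gm42413. The 3 libraries of each group did not overlap for 2769 genes, 18.5% of those tested, with 9.25% higher and 9.23% lower. Lack of overlap was also a condition for the 15 largest rises and 15 largest falls named below. For those genes, Tcf4, Pld4, F7 and Cx3cr1 included, it is no separate support.

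The count of called genes rested on single libraries and on the estimate of spread. It was 18 without seBE rapamycin replicate 3, 90 without its replicate 2 and 1418 without its replicate 1, and it was 57, 71 and 454 without mutant replicates 1, 2 and 3. With the 6 compared libraries alone in the fit it was 7, and after correction for a trend on transcript length and GC content it was 59, of which 40 were among the 393. The genes called higher had a median GC content of 41.8% and those called lower 56.6%, against 49.3% for all tested genes, and the part of library composition in single calls was not tested. Each of the 393 genes kept its direction under all 16 alternatives that could test it, and 7 passed the threshold in every one, among them Tcf4, Pld4, F7, Fads2, Dhcr7 and Itga1. In all 18 passed in at least 14 alternatives, whereas 49 passed in fewer than 8.

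**Figure D2:**
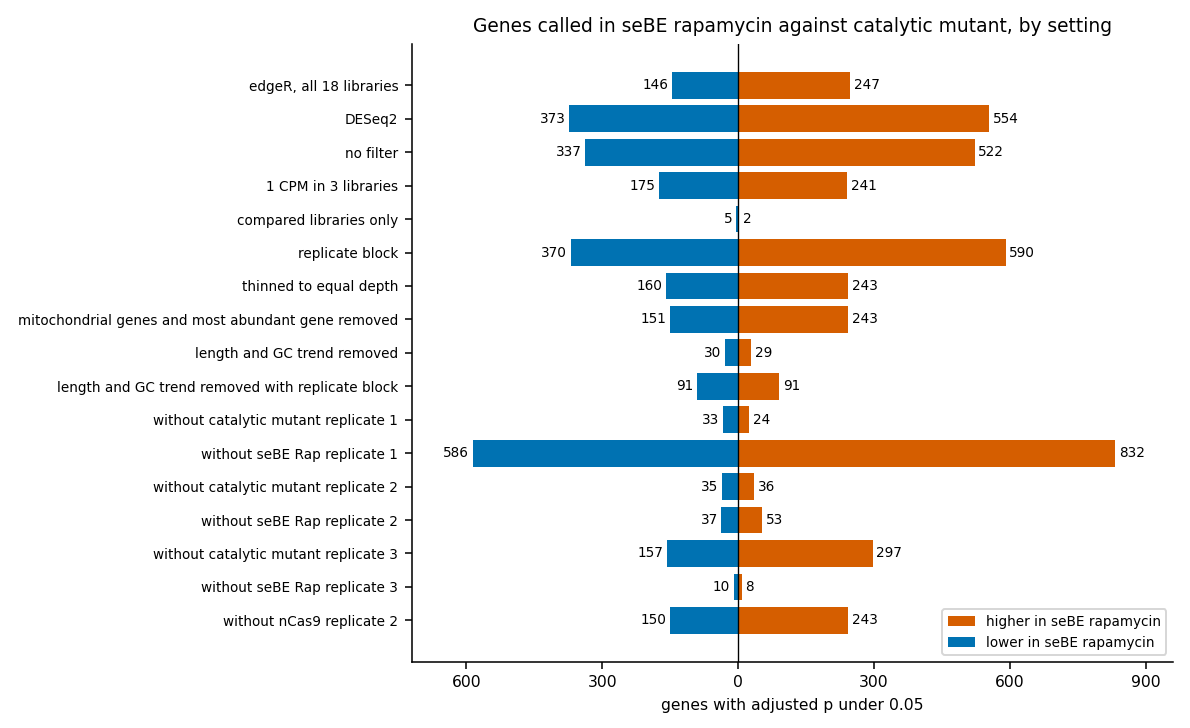
Number of genes past an adjusted p of 0.05 in seBE under rapamycin against the catalytic mutant, higher to the right and lower to the left, for the fit of all 18 libraries (top bar) and 16 alternatives. The totals run from 7 with the compared libraries alone to 1418 without seBE rapamycin replicate 1.

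Tcf4 had the smallest adjusted p of the comparison. It encodes a basic helix-loop-helix factor that directs plasmacytoid dendritic cell and B-lineage genes and is also expressed in some myeloid leukaemias. Its level was 271, 317 and 258 CPM in the mutant and 173, 172 and 172 CPM in seBE under rapamycin. Every mutant library was above every library of seBE under rapamycin. Tcf4 fell by 0.71 on the log2 scale (SE 0.0763, adjusted p = 7.94e-07). seBE under vehicle stood at 160 ± 9.71 CPM (SD, n = 3), near the level under the drug, while nCas9 stood at 266 ± 25.6, intact BE under vehicle at 278 ± 1.06 and intact BE under rapamycin at 309 ± 5.42 CPM. All 6 seBE libraries were thus below all 12 libraries of the other constructs in the plot of levels by group. With the length and GC trend removed the difference was -0.94 with adjusted p = 3.24e-11.

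Pld4, which encodes an endolysosomal exonuclease that degrades single-stranded nucleic acids, differed in the same direction as Tcf4. It stood at 56.4, 57.9 and 50.6 CPM in the mutant and 28.5, 33.7 and 26.4 CPM in seBE under rapamycin. The groups did not overlap. Pld4 fell by 0.90 on the log2 scale (SE 0.12, adjusted p = 6.5e-05), and seBE under vehicle was at 30.1 ± 2.66 CPM. nCas9 stood at 71.8 ± 7.8, intact BE under vehicle at 49.7 ± 4.77 and intact BE under rapamycin at 37.6 ± 6.74 CPM. The lowest library of intact BE under rapamycin, at 31.1 CPM, was below the highest of seBE under rapamycin, at 33.7 CPM. Of 15 plasmacytoid and B-lineage markers only 7 had enough counts to test, and Tcf4 and Pld4 were the 2 that changed. Ighm was at log2 0.19, Irf8 at -0.11, Bst2 at -0.22, Cd79a at -0.44 and Cd79b at -0.19, none past the threshold, and Siglech, Ly6d, Bcl11a, Pax5, Ebf1 and Ms4a1 had 0 counts. The summed level of the list was 329 to 355 CPM in seBE under rapamycin and 451 to 515 CPM in the mutant. In such bulk samples fewer cells of a type and less RNA per cell cannot be told apart.

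F7, the gene of coagulation factor VII, was at 27.3, 34.8 and 35.2 CPM in the mutant and 18.95, 16.7 and 17.6 CPM in seBE under rapamycin. The lowest mutant library was above the highest of the other group, and F7 fell by 0.87 (SE 0.156, adjusted p = 0.0043). Its level in seBE under vehicle, 22.8 ± 3.08 CPM, lay between them. Intact BE under vehicle, at 12.8, 18.7 and 19.0 CPM (16.8 ± 3.49), overlapped seBE under rapamycin. Intact BE under rapamycin was lower, at 13.5 ± 2.61 CPM.

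Itga1, the gene of the collagen-binding integrin alpha 1, was at 75.1, 72.3 and 67.6 CPM in the mutant and 93.2, 111 and 111 CPM in seBE under rapamycin, a rise of 0.55 (SE 0.0852, adjusted p = 5.43e-04). It was chosen after its values were seen, as were Nt5e, the gene of the ectonucleotidase CD73, at 0.40 (SE 0.0727, adjusted p = 0.00519), and the other genes described below as such. Clec5a, which encodes an activating C-type lectin receptor of myeloid cells, rose from 62.3 ± 3.76 to 92.7 ± 13.2 CPM (log2 0.57, SE 0.0938, adjusted p = 0.00141). Clec5a missed the threshold in 1 of 16 alternatives, with adjusted p = 0.0502 for the compared libraries alone.

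**Figure D3:**
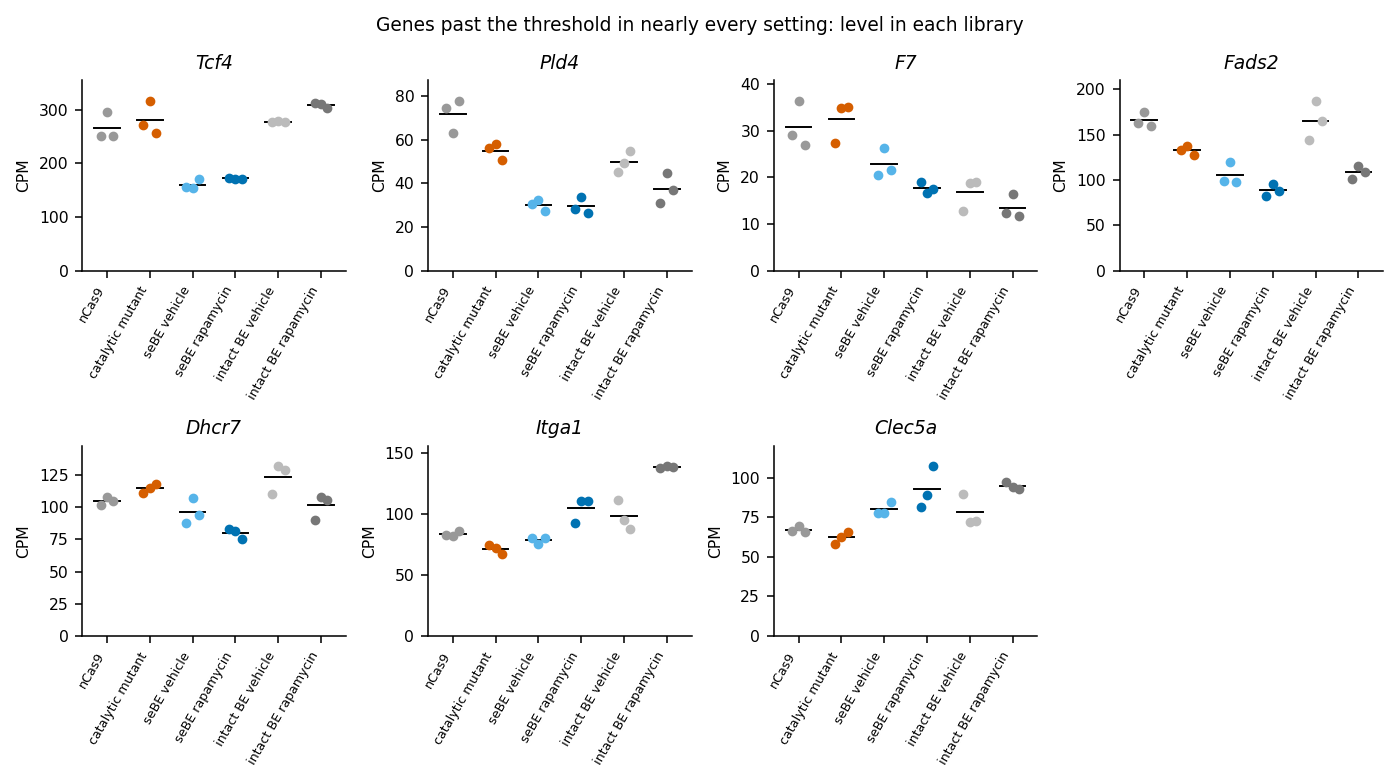
Level in CPM of 7 genes in each of the 18 libraries, with points for libraries and a line for the group mean, linear axes from 0. Tcf4 and Pld4 are low in both seBE groups, with Tcf4 means of 160 and 172 CPM against 266 CPM or more elsewhere. For Pld4, intact BE under rapamycin, at a mean of 37.6 CPM, overlaps the seBE libraries. Itga1 has a mean of 71.7 CPM in the mutant and 105 CPM in seBE under rapamycin.

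A minority of the lipid synthesis genes were called lower in seBE under rapamycin than in the mutant, and none were called higher. Of 30 tested genes for cholesterol synthesis and uptake, 8 fell and 0 rose, with a list median of -0.22 on the log2 scale beside -0.01 for all genes. Of 15 tested genes for fatty acid synthesis, 4 fell and 0 rose, with a median of -0.23. The called shares for all genes were 0.974% lower and 1.65% higher, as above. These lists were chosen with earlier results of these data known.

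Within the sterol pathway, Dhcr7, which carries out the last reduction on the way to cholesterol, had the smallest adjusted p. Dhcr7 was at 111, 115 and 118 CPM in the mutant and 83.4, 81.5 and 75.3 CPM in seBE under rapamycin. The 2 groups did not overlap, and Dhcr7 fell by 0.52 (SE 0.0856, adjusted p = 0.00141). Called members also included Mvk (mevalonate kinase, -0.53), Nr1h2 (the sterol sensor LXR beta, -0.43), Acat2 (acetyl-CoA acetyltransferase, -0.39) and Lss (lanosterol synthase, -0.39), all named after their values were seen. Hmgcs1, which makes HMG-CoA, was at 0.11 and Idi1 at 0.12, neither past the threshold and both just below 0 in 2 of 16 alternatives, and the master regulator Srebf2 was at -0.21 (adjusted p = 0.131). Insig1, which retains the SREBP complex in the endoplasmic reticulum, was at -0.23 without passing.

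Fads2, the delta-6 desaturase gene of polyunsaturated fatty acid synthesis, had the firmest lipid difference. It was at 133, 137 and 127 CPM in the mutant and 82.8, 95.2 and 87.8 CPM in seBE under rapamycin. The highest library of the editor was below the lowest of the mutant, and Fads2 fell by 0.58 (SE 0.0891, adjusted p = 5.43e-04). Scd2, a stearoyl-CoA desaturase gene, was at 573, 609 and 617 CPM in the mutant and 413, 491 and 497 CPM in seBE under rapamycin, without overlap. Scd2 fell by 0.36 (SE 0.0786, adjusted p = 0.0160). Srebf1, the gene of the fatty acid regulator SREBP1, fell by 0.46 (SE 0.101, adjusted p = 0.0160), and Fasn, fatty acid synthase, by 0.32 (SE 0.0726, adjusted p = 0.019), the latter named after its value was seen. Acaca, acetyl-CoA carboxylase, was at -0.23 with adjusted p = 0.0815.

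**Figure D4:**
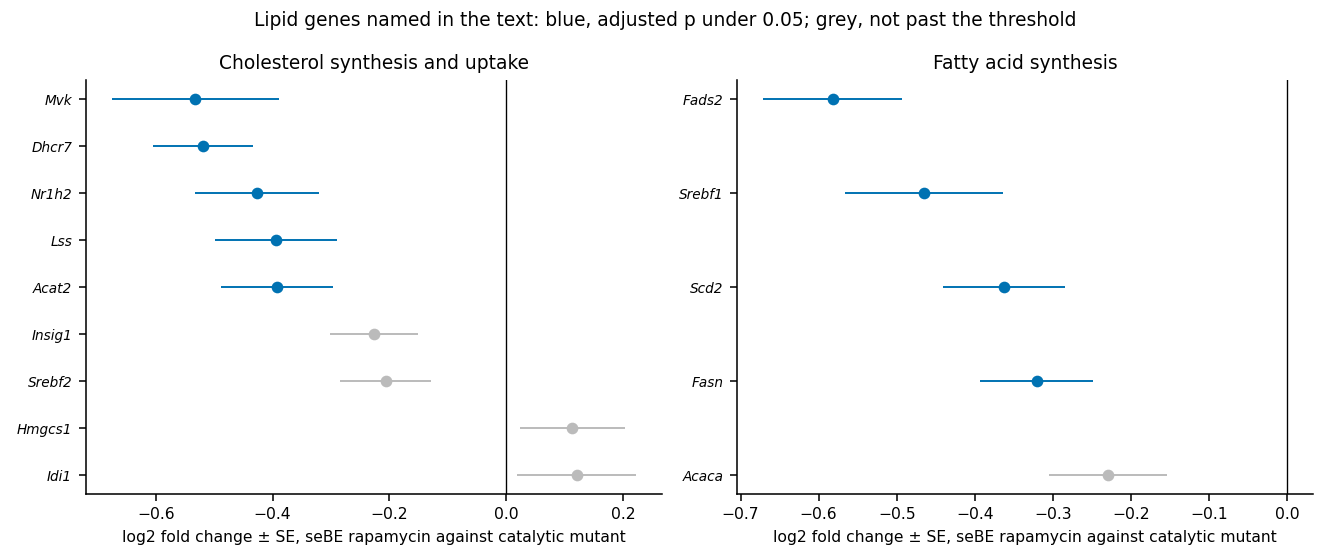
Log2 fold change with SE of the genes of cholesterol synthesis and uptake (left) and fatty acid synthesis (right) that the text names, seBE under rapamycin against the catalytic mutant, blue where adjusted p was under 0.05 and grey elsewhere. Scd1, at 1.74 CPM or less on average in both groups and log2 -1.82 (SE 0.979), is left off the plot. The blue points lie below 0, from -0.58 for Fads2 to -0.32 for Fasn.

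Both list medians kept their direction under all alternatives, but the number of called members changed. Removal of the length and GC trend left 2 cholesterol genes and 3 fatty acid genes lower, with medians of -0.201 and -0.205. The cholesterol count was 2 without mutant replicate 1 or 2 or seBE rapamycin replicate 3, 4 without seBE rapamycin replicate 2 and 1 with the compared libraries alone, and the fatty acid count was 1 without mutant replicate 2 or with the compared libraries alone and 2 without seBE rapamycin replicate 2 or 3.

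The promoters of Mvk, Lss and Fasn are shown because these 3 called lipid genes have a single window and it holds a CCAAT box, the element bound by NF-Y, which cooperates with SREBP at many sterol gene promoters. Each sequence is the 250 bases before the RefSeq start of the gene on GRCm38.p6, in the direction of transcription, and capitals mark CCAAT or its reverse complement ATTGG.
Mvk, chr5:114444019-114444268, plus strand: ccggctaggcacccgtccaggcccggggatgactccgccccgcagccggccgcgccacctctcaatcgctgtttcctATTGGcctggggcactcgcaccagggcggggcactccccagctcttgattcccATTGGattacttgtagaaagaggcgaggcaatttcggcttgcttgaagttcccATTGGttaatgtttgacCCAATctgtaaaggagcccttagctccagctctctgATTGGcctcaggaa
Lss, chr10:76531355-76531604, plus strand: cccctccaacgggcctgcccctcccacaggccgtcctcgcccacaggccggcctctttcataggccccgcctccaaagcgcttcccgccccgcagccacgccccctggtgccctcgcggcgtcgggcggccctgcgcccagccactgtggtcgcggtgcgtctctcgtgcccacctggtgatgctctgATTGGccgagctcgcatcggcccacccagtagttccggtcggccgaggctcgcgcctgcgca
Fasn, chr11:120824548-120824797, minus strand: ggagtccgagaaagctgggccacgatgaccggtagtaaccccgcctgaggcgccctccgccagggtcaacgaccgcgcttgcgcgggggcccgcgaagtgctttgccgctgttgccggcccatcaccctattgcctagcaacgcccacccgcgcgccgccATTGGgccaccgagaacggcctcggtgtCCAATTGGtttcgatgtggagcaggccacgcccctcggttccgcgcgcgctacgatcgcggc
Mvk holds 5 such boxes, Lss 1 and Fasn 3, of which a pair share letters. On either strand the box was found in 17 of the 21 tested cholesterol genes with a window (81%) and in 6 of 12 fatty acid genes, against 37.5% of 27025 genes and 33.8% of 32851 RefSeq windows of this length. Among cholesterol genes it was found in 3 of 5 called genes and 14 of 16 that did not pass. Dhcr7 and Srebf1 hold it in some of their 3 windows, and the windows of Acat2, Nr1h2 and Fads2 do not hold it. A sterol element spelled TCACNCCAC was found in 1 of the 21 and 0 of the 12, against 1.22% of genes and 1.05% of windows. These matches describe the letters of the windows and were not linked to binding.

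A few genes of amino acid supply fell. Of 24 tested enzymes and transporters controlled by ATF4, 3 (12.5%) fell beside 0.974% of all genes, 0 rose, and the median was -0.16. The 3 were Phgdh, the first enzyme of serine synthesis, Bcat1, a branched-chain aminotransferase, and Shmt2, a mitochondrial one-carbon enzyme. Phgdh was at 215, 217 and 244 CPM in the mutant and 179, 152 and 157 CPM in seBE under rapamycin. The groups did not overlap, and Phgdh fell by 0.47 (SE 0.0801, adjusted p = 0.00248). Bcat1 fell by 0.59 (SE 0.154, adjusted p = 0.0348) and Shmt2 by 0.26 (SE 0.0730, adjusted p = 0.0496). With the length and GC trend removed Phgdh was at -0.27 (adjusted p = 0.0507) and Shmt2 at -0.06 (adjusted p = 0.803), and Bcat1 passed at -0.69. The ATF4 count was 0 with the compared libraries alone, 1 without any single mutant library or seBE rapamycin replicate 3, and 2 without seBE rapamycin replicate 2. Asns, asparagine synthetase, was at -0.11 with adjusted p = 0.53. Slc7a11, the cystine transporter gene, was at 70.8 ± 18.3 CPM in the mutant and 70.6 ± 2.18 CPM in seBE under rapamycin (adjusted p = 0.991).

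Of 18 integrated stress response effectors, Stc2, a secreted stress glycoprotein gene, fell by 0.46 and Eif2ak2, the gene of the double-stranded RNA kinase PKR, rose by 0.45, while Atf4 was at -0.10 and Ddit3 at -0.57 (adjusted p = 0.092). Of 20 aminoacyl-tRNA synthetases, 3 (15%) fell, beside 0.974% of all genes. The 3 were Sars (-0.32, adjusted p = 0.03), Cars (-0.35, 0.0374) and Vars (-0.25, 0.0452), which charge tRNAs with serine, cysteine and valine. No synthetase passed with the length and GC trend removed, with the compared libraries alone, or without mutant replicate 1 or 2 or seBE rapamycin replicate 2 or 3. The count was 1 without mutant replicate 3 and 5 without seBE rapamycin replicate 1.

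A few cell division genes rose. Of 44 tested mitosis genes 5 (11.4%) rose, beside 1.65% of all genes, and 0 fell, with a median of 0.16. Aspm, a spindle pole gene, rose by 0.38 (SE 0.0912, adjusted p = 0.0268), Kif11, a spindle motor, by 0.32, Ccna2, cyclin A, by 0.32, and Mad2l1, a spindle checkpoint gene, and Spc25, a kinetochore gene, by 0.29 and 0.39, the latter pair named after their values were seen. Aspm stood at 53.9, 62.2 and 65.8 CPM in the mutant and 68.6, 80.3 and 87.7 CPM in seBE under rapamycin. The groups were close but did not overlap. Mki67, the proliferation marker, was at 0.16 (adjusted p = 0.297) and Top2a at 0.23 (adjusted p = 0.0971). After removal of the length and GC trend 0 mitosis genes passed and the median was 0.06, and the count was 0 without mutant replicate 1 or 2 or seBE rapamycin replicate 2 or 3 and with the compared libraries alone, and 16 without seBE rapamycin replicate 1. Of 43 S-phase genes, Mcm4, a subunit of the replicative helicase, rose by 0.31 and Pold1, the catalytic subunit of a replicative polymerase, fell by 0.30, and the median was 0.00. Cenpk, a centromere gene, rose from 19.9 ± 2.25 to 31.3 ± 5.99 CPM.

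Across the base excision, mismatch and break repair lists, 1 gene passed the threshold between seBE under rapamycin and the mutant. Ung was at 27.0, 21.9 and 30.4 CPM in the mutant and 32.0, 26.7 and 27.7 CPM in seBE under rapamycin, with overlapping groups and log2 0.13 (SE 0.129, adjusted p = 0.658). None of 23 base excision repair genes and none of 8 mismatch repair genes passed, with medians of -0.05 and 0.01. Tdg, a thymine and uracil glycosylase gene, was at 0.01 and Parp1, the break sensor, at -0.05. Of 38 homologous recombination, Fanconi and checkpoint genes, 1 rose: Atm, the break kinase gene, at 34.3, 41.4 and 36.7 CPM in the mutant and 48.8, 44.4 and 67.6 CPM in seBE under rapamycin. The groups did not overlap, and Atm rose by 0.51 (SE 0.12, adjusted p = 0.0214), but with the length and GC trend removed it was at 0.29 with adjusted p = 0.22. The list median was 0.14, or 0.03 with the trend removed.

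The libraries of the groups overlapped for the p53 targets Cdkn1a and Mdm2. Cdkn1a, the cell cycle inhibitor p21, was at 163 ± 14.7 CPM in the mutant and 160 ± 12.5 CPM in seBE under rapamycin (log2 -0.03, SE 0.0792, adjusted p = 0.909). Mdm2 was at 135 ± 3.01 and 142 ± 3.62 CPM (log2 0.07, SE 0.0713, adjusted p = 0.665). Of 36 p53 targets only Apaf1, the apoptosome gene, rose, by 0.30 (adjusted p = 0.0463), with a list median of 0.03. Of 36 interferon-stimulated and nucleic acid sensing genes only Eif2ak2 rose, and the list median was -0.13. Isg15 was at -0.29 with adjusted p = 0.878, at about 1.05 CPM in the mutant. Apobec1, the mouse relative of the editor's deaminase, was at 29.0 ± 3.83 and 27.4 ± 2.69 CPM (log2 -0.08, adjusted p = 0.803), and of 7 tested APOBEC and RNA-editing factors only Syncrip, an RNA-binding partner of Apobec1, rose, by 0.34, a call lost at 0.06 with the trend removed.

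The rapamycin receptor and its target kinase were not changed past the threshold. Fkbp1a was at 201 ± 11.4 and 192 ± 10.9 CPM (log2 -0.06, adjusted p = 0.698). Mtor was at 71.98, 74.2 and 72.7 CPM in the mutant and 71.0, 61.3 and 62.6 CPM in seBE under rapamycin (log2 -0.17, SE 0.0836, adjusted p = 0.271). None of 36 genes of mTOR complexes, FK506-binding proteins and S6 kinases passed, with Rictor, of mTORC2, at 0.33 (adjusted p = 0.0666) and Rptor, of mTORC1, at -0.26 (adjusted p = 0.123).

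Few translation and respiration genes passed. Of 79 cytosolic ribosomal protein genes, Rpsa fell by 0.26 (adjusted p = 0.0436) and Rpl35 by 0.28 (adjusted p = 0.0406), and the median was -0.03. These 2 were 2.53% of the list, beside 0.974% of all genes called lower. With the length and GC trend removed 3 were higher, 0 lower and the median 0.00274. No ribosomal protein gene was lower without mutant replicate 1 or 2 or seBE rapamycin replicate 2 or 3, 5 were without mutant replicate 3 and 9 without seBE rapamycin replicate 1, and the median was 0.0518 without mutant replicate 1. Eif3e, a subunit of initiation factor eIF3, rose by 0.33 and Uqcrb, a complex III subunit gene, by 0.35, and neither passed with the trend removed. Of 13 mitochondrially encoded genes only mt-Co2 fell, and the median was -0.34. mt-Co2 was at 9.11, 12.7 and 14.5 CPM in the mutant and 5.53, 6.89 and 4.67 CPM in seBE under rapamycin, without overlap, and mt-Co2 fell by 1.09 (SE 0.255, adjusted p = 0.0227). Its level is uncertain, since mt-Co2 has nuclear copies and the sources used here do not say how shared reads were assigned. mt-Nd1 was at 6002 ± 1044 CPM in the mutant and 4739 ± 1135 CPM in seBE under rapamycin (log2 -0.34, adjusted p = 0.366).

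No leukaemic identity gene passed, while a few genes of mature myeloid cells rose. Hoxa9 was at 297, 295 and 278 CPM in the mutant and 305, 299 and 296 CPM in seBE under rapamycin, with overlap (log2 0.05, SE 0.0667, adjusted p = 0.761). Kit was at 0.12 and Mpo at -0.26, neither past the threshold. Of 40 tested mature myeloid effectors and receptors 3 (7.5%) rose, beside 1.65% of all genes, and 0 fell, with a median of 0.07. Cx3cr1, the fractalkine receptor of monocytes, was at 4.63, 5.12 and 4.28 CPM in the mutant and 9.04, 11.1 and 9.12 CPM in seBE under rapamycin. Every library of the editor was above every mutant library, and Cx3cr1 rose by 1.05 (SE 0.243, adjusted p = 0.0202), a call that held at 1.06 with the trend removed. Ly6c2, a monocyte surface antigen gene, rose by 0.29 and Ccl9, a chemokine gene, by 0.24. With the trend removed Ccl9 was at 0.09 (adjusted p = 0.585). Ccl9 passed in 7 of 16 alternatives, against 12 for Ly6c2 and 10 for Cx3cr1. S100a8 and S100a9, the calprotectin genes of neutrophils, had larger differences with larger errors. S100a8 was at 153, 108 and 43.8 CPM in the mutant and 358, 300 and 160 CPM in seBE under rapamycin (log2 1.43, SE 0.503, adjusted p = 0.146). S100a9 was at 57.3 ± 25.03 and 188 ± 81.9 CPM (log2 1.72, SE 0.549, adjusted p = 0.111). The libraries of the groups did not overlap for either gene, yet neither passed in the fit without a replicate block. In each of the 6 groups both genes were highest in the library numbered 1 and lowest in that numbered 3.

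Of 19 tested myeloid factors and primary granule genes 2 (10.5%) rose and 1 (5.26%) fell, beside 1.65% and 0.974% of all genes. The list median was -0.11, and only 6 of the 19 were above 0. Serpinb1a, an inhibitor of neutrophil proteases, rose by 0.34 (adjusted p = 0.011) and Srgn, the granule proteoglycan serglycin, by 0.26. Serpinb1a passed in 14 of 16 alternatives and Srgn in 8. Cebpe, a factor of late granulocytes, fell by 0.30 and was at -0.03 with the trend removed. Mcpt8, a basophil protease gene, fell from 20.04 ± 2.66 to 12.3 ± 1.62 CPM (log2 -0.70, adjusted p = 0.0214), the only one of 6 tested mast cell and basophil markers to change. That list summed to 499 to 514 CPM in seBE under rapamycin and 499 to 557 CPM in the mutant, of which Kit is also a leukaemic gene. Cd28, a costimulatory receptor gene, rose from 115 ± 10.7 to 142 ± 13.6 CPM (log2 0.31, adjusted p = 0.0351) but was at 0.12 (adjusted p = 0.476) with the trend removed, whereas 13 of 15 T and NK cell markers were under the count filter, among them Cd3e with 0 counts. Summed erythroid and megakaryocyte markers, of which 4 of 17 could be tested and none passed, were at 277.5 to 358 CPM against 235.7 to 261.5 CPM. Only 1 of these 4 had a log2 value above 0, and their median was -0.08. Summed fibroblast, epithelial and endothelial markers, with 3 of 16 tested and none past the threshold, were at 288.2 to 292.3 CPM against 261.8 to 275.1 CPM. Here too only 1 of the 3 was above 0, with a median of -0.08, so neither higher sum was shared by most members. The part of other cells in these levels was not tested.

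Among called genes with at least 5 CPM in the higher group, no overlap and a symbol that is not a clone or predicted name, the 15 largest rises ran from Cx3cr1 to Mycbp. Stfa1, a cysteine protease inhibitor of the stefin A family, was at 637, 524 and 340 CPM in the mutant and 1024, 1079 and 948 CPM in seBE under rapamycin. No mutant library reached the editor's lowest, and Stfa1 rose by 1.02 (SE 0.241, adjusted p = 0.0463). Its reads can be shared with near-identical stefin genes, so the assignment to Stfa1 is uncertain. Cdh17, a cadherin gene, rose by 1.02 and Atp1b1, a sodium pump subunit gene, by 0.94, both below 11 CPM in each of the 6 compared libraries. Stfa1 passed in 8 and Cdh17 in 9 of 16 alternatives, and Atp1b1 in 7 of the 15 that could test it. With the length and GC trend removed Atp1b1 was at 0.95 (adjusted p = 0.101). Fgl2, a fibrinogen-like secreted protein gene, rose from 18.4 ± 4.97 to 30.7 ± 5.48 CPM and Slc40a1, the iron exporter ferroportin, from 22.2 ± 2.74 to 34.7 ± 6.65 CPM. The remaining named rises were Zfp953 (0.85) and Zfp329 (0.61), both zinc finger genes, Cenpk (0.65), Mcee (0.61), a methylmalonyl-CoA epimerase, Dram2 (0.58), an autophagy regulator, Kansl1l (0.58), Clec5a (0.57) and Mycbp (0.57), a MYC-binding protein gene. Zfp953 belongs to a large family of similar genes, and its count is uncertain.

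By the same rule the 15 largest falls were led by Nlrc3, an inhibitory member of the NOD-like receptors. Nlrc3 was at 9.25, 10.6 and 5.62 CPM in the mutant and 3.94, 3.81 and 2.22 CPM in seBE under rapamycin. The groups did not overlap, and Nlrc3 fell by 1.36 (SE 0.268, adjusted p = 0.011). Tgm2, tissue transglutaminase, was at 14.96, 20.2 and 15.8 CPM in the mutant and 10.6, 7.67 and 5.56 CPM in seBE under rapamycin. Every mutant library was above every library of the editor, and Tgm2 fell by 1.11 (SE 0.228, adjusted p = 0.0143). Sla2, an adaptor that dampens antigen receptor signals, fell by 0.86, but mutant replicate 3, at 35.6 CPM against 17.4 and 17.0, set much of the size: without it the value was -0.425 (adjusted p = 0.174). The others were Gpx4-ps2 (-1.09), a pseudogene whose reads can be shared with Gpx4, Rasal1 (-0.97), a RAS GTPase activator, Mpzl1 (-0.95), Fam213a (-0.94), Slc6a8 (-0.81), the creatine transporter, Pcp4l1 (-0.74), Map3k10 (-0.73), a stress kinase, and mt-Co2, Pld4, F7, Tcf4 and Mcpt8 as given above. Of 16 alternatives Mpzl1 passed in 5, Rasal1 in 6, Slc6a8 in 7, Gpx4-ps2 and Map3k10 in 8, Fam213a in 9 and Pcp4l1 in 10.

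Aldh1a7 stood out by its lack of reads. This cytosolic aldehyde dehydrogenase gene, chosen after its values were seen, had 10, 14 and 8 reads in the mutant and 0, 0 and 0 in seBE under rapamycin, and again 0 in the 3 libraries of seBE under vehicle. Against a floor of 3 counts over the group (0.0461 CPM), its pooled 0.67 CPM in the mutant made it at least 14.5-fold lower in seBE under rapamycin. Aldh1a7 had 75, 89 and 68 reads in nCas9, 16, 32 and 40 under vehicle with intact BE and 9, 8 and 2 in intact BE under rapamycin. The 6 seBE libraries thus had 0 reads of Aldh1a7 and every other library had some, but replicate 3 of intact BE under rapamycin had only 2. Counts were low, and the floor covers counting error only. Hm629797 was likewise at 0 in seBE under rapamycin, against 9, 11 and 8 reads in the mutant, and at 8, 1 and 3 reads in seBE under vehicle. It was at least 12.7-fold lower in seBE under rapamycin than in the mutant by the same floor. Hm629797 passed the threshold in only 4 of 16 alternatives, and its counts were low in the other constructs too. It had 11, 15 and 0 reads in nCas9. Intact BE held 1, 2 and 0 reads of it under vehicle and 10, 10 and 3 under rapamycin.

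Other lists gave up to 3 calls each, beside 1.65% of all genes called higher and 0.974% called lower. Of 14 tested genes of polyamine metabolism 2 (14.3%) rose and 1 (7.14%) fell. Azin1, an antizyme inhibitor, and Mat2a, which makes S-adenosylmethionine, rose by 0.42 and 0.27, and Srm, spermidine synthase, fell by 0.41. Of 23 ER chaperones and folding factors 2 (8.7%) fell, Sdf2l1 by 0.43 and Creld2 by 0.40. Among 24 redox genes Gsr, glutathione reductase, rose by 0.24 and Ftl1, ferritin light chain, fell by 0.36 (4.17% each way). Of 42 lysosome and autophagy genes Fnip1, a folliculin partner, rose by 0.30 and Ctsz, cathepsin Z, fell by 0.38 (2.38% each way). Of 35 MYC target and ribosome biogenesis genes Nop58, a snoRNP core gene, rose by 0.28 and Srm fell (2.86% each way). Adsl, 1 of 24 (4.17%) genes of purine and pyrimidine synthesis, fell by 0.28. Rasa1, a RAS GTPase activator and 1 of 17 (5.88%) RAS-MAPK feedback genes, rose by 0.38 although its libraries overlapped. With the length and GC trend removed only Gsr and Adsl of these passed, and Nop58 was at 0.04, Fnip1 at 0.07, Srm at -0.16, Ctsz at -0.19 and Ftl1 at -0.18. None of 26 replication-dependent histone genes passed, and their median was -0.43. Their summed level was low and overlapped, at 57.2 to 105 CPM in the mutant and 51.7 to 87.9 CPM in seBE under rapamycin.

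The comparison was then set beside its parts. seBE under vehicle against the same mutant libraries carries the construct without the drug, and seBE under rapamycin against seBE under vehicle carries the drug within the construct, so the 2 add up to the whole difference by construction and share libraries with it. In the first, 0 genes were higher and 4 (0.0267%) lower: Tcf4 at -0.81, Pld4 at -0.87, Tgm2 at -1.45 and Aldh1a7. An unadjusted p under 0.05 was reached by 1303 genes, and DESeq2 called 10 higher and 9 lower. In the second, 0 genes (0%) passed in edgeR, with 493 at an unadjusted p under 0.05 and 1 higher and 0 lower by DESeq2. Of the 393 called genes, 4 passed in the construct step and 389 in neither step.

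The values of the 2 steps for single genes follow, and the difference between the steps was not tested. Tcf4 had -0.81 (SE 0.0767) from the construct step and 0.10 (SE 0.0764) from the drug step, and Pld4 had -0.87 and -0.03. Itga1 had 0.14 from the construct step and 0.42 (SE 0.0846, adjusted p = 0.3) from the drug step. Of the lipid genes, Fads2 was at -0.33 and -0.26 and Dhcr7 at -0.25 and -0.27. Phgdh was at -0.18 and -0.28, Clec5a at 0.36 and 0.21 and F7 at -0.51 and -0.36. Of these values only the construct steps of Tcf4 and Pld4 passed on their own.

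Rapamycin against vehicle in intact BE, which shares no library with the comparison, called 497 genes (3.32%), 296 higher (1.98%) and 201 lower (1.34%). Fads2 was at -0.60 there (adjusted p = 2.88e-05), Scd2 at -0.60, Phgdh at -0.76, Nt5e at 0.77 and Itga1 at 0.50, all past the threshold, while Dhcr7 was at -0.29 (adjusted p = 0.0533). Tcf4 was at 0.15 (adjusted p = 0.347), Pld4 was at -0.40 (adjusted p = 0.0502), and Tgm2 rose by 1.01. Of the cholesterol list 7 of 30 fell with a median of -0.25, and of the fatty acid list 5 of 15 fell with a median of -0.31. Of the ATF4 list 14 of 24 fell and 1 rose with a median of -0.56. Of the synthetases 11 of 20 fell, and of the cytosolic ribosomal protein genes 27 of 79 rose with a median of 0.22. The difference between the drug step in seBE and in intact BE passed for 28 genes (0.187%), 11 higher (0.0734%) and 17 lower (0.113%). Among genes named here these included Nt5e at -0.57 (adjusted p = 0.00564), Asns at 0.80, Shmt2 at 0.48, Bcat1 at 1.01 and Ighm at 1.18. For Fads2 that difference was 0.35 (adjusted p = 0.438) and for Itga1 -0.08 (adjusted p = 0.959).

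**Figure D5:**
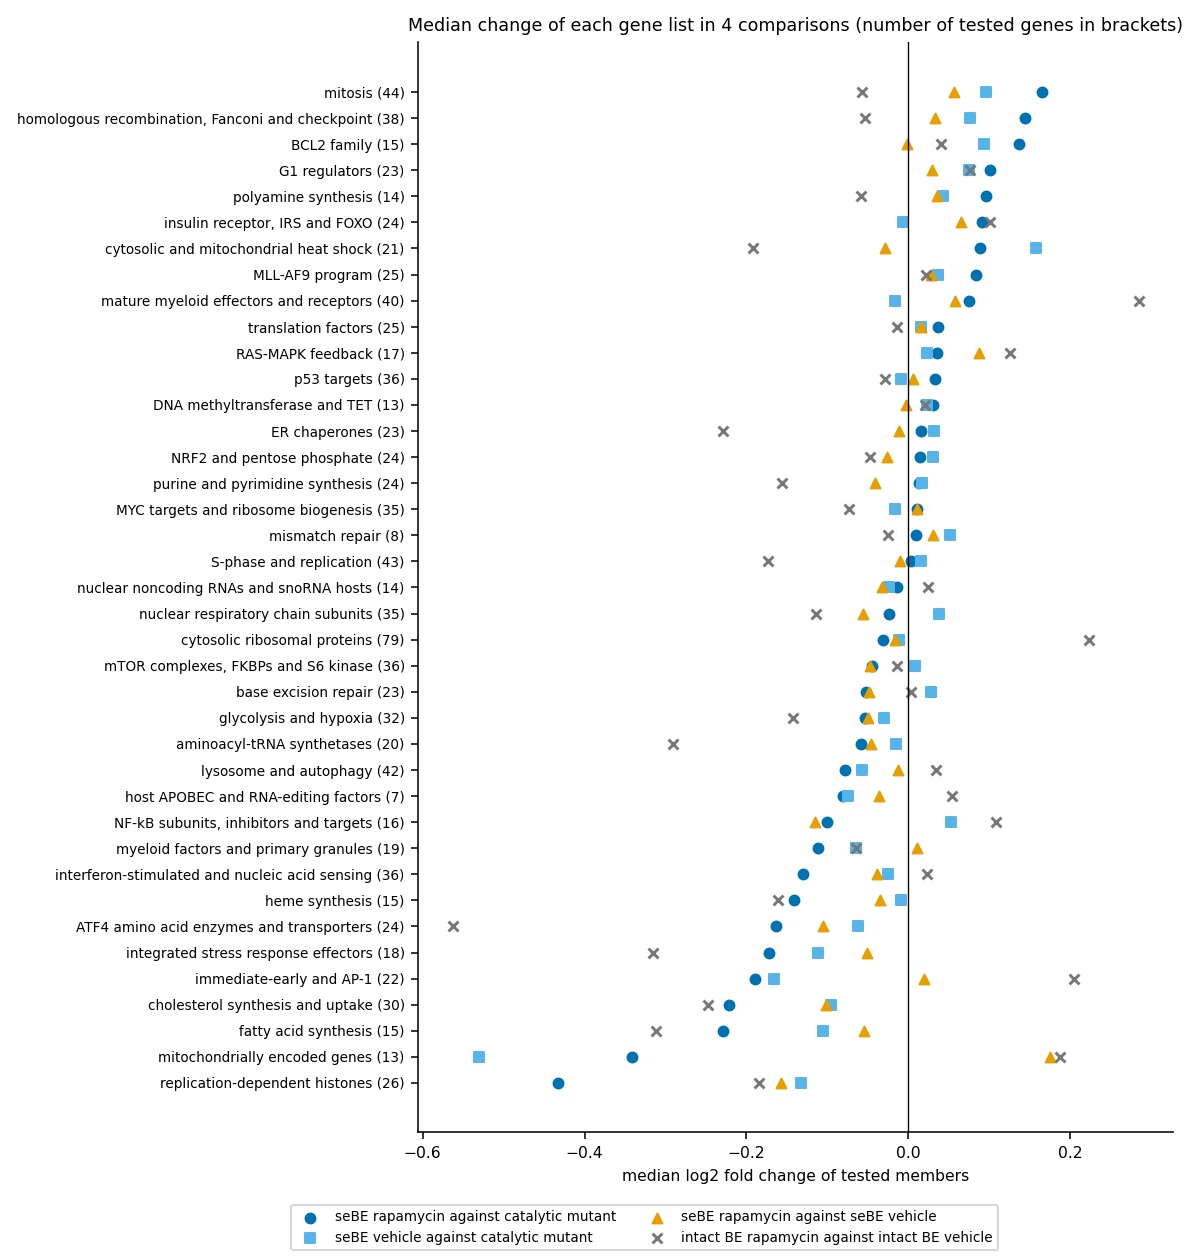
Median log2 fold change of the tested members of each gene list (number in brackets) in 4 comparisons. Circles, seBE under rapamycin against the catalytic mutant, lie at -0.43 for replication-dependent histones, -0.34 for mitochondrially encoded genes, -0.23 and -0.22 for the lipid lists and 0.16 for mitosis. Squares are seBE under vehicle against the mutant, triangles rapamycin in seBE and crosses rapamycin in intact BE, where ATF4 genes lie at -0.56.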

How the data were processed

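Directional polyA mRNA libraries of 18 samples in 6 groups were sequenced. The authors deposited raw read counts per gene made with featureCounts of Subread 2.0.3, after fastp 1.0.1, STAR 2.7.1a and SAMtools 1.9 on GRCm39, per the submitters' processing notes. For the annotation release, strand setting and multi-mapping reads, the choice is not given in the sources used here. Counts were fitted in edgeR 4.0.16 (R 4.3.3) with TMM scaling, its filter on low counts and robust quasi-likelihood F tests on 6 group means, so that all 18 libraries shared 1 estimate of spread. P-values were adjusted by Benjamini-Hochberg over 14985 of 56748 genes, which held 99.93% of counts, and the threshold was 0.05. CPM are counts scaled to the TMM-adjusted library size. Total counts ran from 13835979 to 23284932 over the 18 libraries. Symbols matched 52073 of the 56748 identifiers, and transcript length and GC came from GENCODE M21 on GRCm38, available for 97.4% of tested genes. The procedure was tested on simulated data. Genes were named by size (the 15 largest rises and falls under the conditions given in the text), by adjusted p (up to 3 a direction from each of 45 lists) and 8 always. The members and lists were chosen with earlier results of these data known. Alternatives were DESeq2 1.42.0, no filter, 1 CPM, the compared libraries alone, a replicate block, equal depth, removal of mitochondrial and most abundant genes, removal of a length and GC trend (also with the block), and leaving out single libraries. The trend with the block and the fit without nCas9 replicate 2 were added after seeing the data. Some genes that meet the naming rule are not reported here.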

Additional observations from a re-analysis of the deposited data

Results flagged for a closer look

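For 5 of the genes named above, the response to rapamycin differed between seBE and intact BE by a direct test of that difference (edgeR's quasi-likelihood test, adjusted over all genes), given as the drug step in seBE minus that in intact BE on the log2 scale. For Asns it was 0.802 (adjusted p = 0.00176), with -0.15 in seBE and -0.95 in intact BE. For Bcat1 it was 1.01 (adjusted p = 0.0325), with -0.21 and -1.22. For Shmt2 it was 0.485 (adjusted p = 0.028), with -0.08 and -0.57. For Ighm, an immunoglobulin heavy chain gene, it was 1.18 (adjusted p = 0.00564), with 0.03 and -1.14. For Nt5e it was -0.573 (adjusted p = 0.00564), with 0.20 in seBE and 0.77 in intact BE. In each of the 5 the step in seBE was the smaller in size.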

How the results depend on the processing

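For seBE under rapamycin against the mutant, the 247 higher and 146 lower genes became 554 and 373 with DESeq2, 522 and 337 with no filter, 2 and 5 with the compared libraries alone, 590 and 370 with the replicate block, 29 and 30 with the length and GC trend removed, and 91 and 91 with that trend removed and the replicate block. Leaving out 1 library gave 8 to 832 higher and 10 to 586 lower. The share of called genes that were higher went from 62.8% to 49.2% with the trend removed and 28.6% with the compared libraries alone.

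For seBE under vehicle against the mutant, 0 higher and 4 lower became 10 and 9 with DESeq2, 9 and 13 with no filter, 19 and 13 with the replicate block, 1 and 8 with the trend removed, and 0 to 2 and 2 to 4 without 1 library. For the drug in seBE, 0 higher became 1 with DESeq2 and 0 to 1 without 1 library. For the drug in intact BE, 201 lower became 308 with the replicate block and 78 to 179 without 1 library, and 296 higher became 135 to 233. For the difference between drug steps, 11 higher and 17 lower became 27 and 48 with DESeq2, 24 and 42 with no filter, 26 and 39 with the replicate block, 23 and 50 with the trend removed, and 4 to 23 and 7 to 31 without 1 library. The cause of these shifts was not tested. The mitochondrial difference was -1.46 to -0.477 percentage points without 1 library. The genes past the threshold kept their direction. Among named genes that did not pass, values near 0 changed sign in some alternatives, as for Cdkn1a (-0.0976 to 0.105), Tdg (-0.0735 to 0.126), Slc7a11 (-0.243 to 0.181), Parp1 (-0.117 to 0.0142), Fkbp1a (-0.109 to 0.0767), Mdm2 (-0.00329 to 0.0884), Apobec1 (-0.173 to 0.014), Atf4 (-0.16 to 0.0584), Malat1 (-0.0441 to 0.682), Mpo (-0.45 to 0.00858), Isg15 (-0.802 to 0.205) and Cd79b (-0.932 to 1.14).

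Over all genes the replicate numbers fell short of the standard used for pairing, a correlation over 0.1 in every pair. Same-numbered libraries of the 2 groups had correlated deviations of 0.0298, 0.0575 and 0.115, each the highest for its seBE library. Mutant replicate 1 was closer to seBE replicate 2 (0.0433). Same-numbered libraries of seBE under vehicle and the mutant were at 0.0167, 0.0858 and 0.0378. Those of the 2 seBE groups were at 0.0237, 0.0477 and 0.0594, and those of the 2 intact BE groups at 0.0321, 0.0585 and -0.00884. A weak pairing is thus hinted at by the data and not by the design, and the main fit had no replicate block. With the replicate block S100a8 was at 1.49 (adjusted p = 7.35e-06) and S100a9 at 1.71 (adjusted p = 5.87e-20), both past the threshold there.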
